A study of Mus musculus with 20 samples.

Results

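The genes followed here through the layers of the mouse retina are linked to the fatty acids of photoreceptor membranes. These fatty acids include docosahexaenoic acid (DHA) and very-long-chain fatty acids. The genes encode elongases, desaturases, an acyl-CoA synthetase, acyltransferases, a transporter and a receptor. The members are the probe sets whose single gene symbol in the platform's annotation is Elovl2, Elovl4, Elovl5, Fads1, Fads2, Acsl6, Lpcat1, Agpat3, Mfsd2a or Adipor1. That gave 10 genes of the 19938 with such a probe set, 1 probe set each, of 35557 probe sets on the array. RNA came from adult C57BL/6 mice aged 7 to 8 weeks, which had been light adapted for 6 h (450 lux) or dark adapted for 3 h (at most 0.4 lux). Laser capture microdissection, which cuts cells out of a section under the microscope, gave 4 layers. They were the photoreceptor layer (outer nuclear layer with the inner and outer segments), the inner nuclear layer with the cell bodies of interneurons and Müller glia, the inner plexiform layer of synapses, and the ganglion cell layer. Whole retina was measured as well, which makes 5 tissues. There were 2 arrays for a tissue in light and 2 in dark, 10 groups in all. No label says which animals an array came from, so p-values measure only the spread between these samples, which may be technical.

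DHA is the most abundant polyunsaturated fatty acid of the disc membranes that hold rhodopsin in photoreceptor outer segments. Cells obtain it from the blood as lysophosphatidylcholine or make it from shorter precursors by alternating desaturation (Fads1, Fads2) and elongation (Elovl5, Elovl2), with a last step in peroxisomes. Elovl4 lengthens such fatty acids further, and acyl-CoA synthetases and acyltransferases then place them in phospholipids. Mutations of human ELOVL4 cause a dominant juvenile macular dystrophy.

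Intensities are the deposited linear values, and differences are in log2 units with a standard error (SE) and 95% interval, both from a limma fit over 15057 genes. A gene is called when its Benjamini-Hochberg adjusted p over all those genes is under 0.05. Medians of the 20 arrays lay between 37.5 and 40.8, and replicates of a group correlated across genes at 0.851 to 0.956. The rod markers (7 of the 8 listed are on the array) summed to 5521 to 6021 in the photoreceptor layer, 4670 to 5319 in whole retina and 403 to 1964 in the 12 arrays of the other layers. Ganglion cell markers summed to 1737 to 3025 in the ganglion cell layer and to at most 898 in the other layers. Bipolar cell markers overlapped between tissues, at 610 to 1098 in the inner nuclear layer, 557 to 777 in the inner plexiform layer, 668 to 829 in whole retina and 312 to 401 in the remaining layers. Y-linked probe sets stood at a median of 192 to 306 on 5 light-adapted arrays (1 each of photoreceptor layer, inner nuclear layer and whole retina, and both of the ganglion cell layer), against 8.6 to 25.1 in the other arrays. The 2 light-adapted inner plexiform layer arrays also stood apart in an earlier analysis of these data. Results are given below without these arrays where a call rests on them. In such bulk samples, fewer cells of a type and less RNA per cell cannot be told apart.

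Transcripts of Elovl4, the acyltransferases Agpat3 and Lpcat1, the acyl-CoA synthetase Acsl6 and Adipor1 were higher in the photoreceptor layer than in the other layers. That of the desaturase Fads1 was lower. Of the 9 members that passed the filter on dim probe sets, 6 were called between the photoreceptor layer and the mean of the other 3 layers, where 12.9% of all genes tested were called. There were 5 higher (7.26% of all genes), Elovl4, Agpat3, Adipor1, Lpcat1 and Acsl6, and 1 lower (5.69%), Fads1. The Lpcat1 and Acsl6 calls did not hold in light arrays alone, in dark arrays alone or without certain single photoreceptor arrays (below). The median difference of the 9 was 0.49, against -0.06 over all genes. Of the 9, 3 (Elovl4, Agpat3 and Adipor1) were higher in the photoreceptor layer than in each other layer taken singly, which 3.06% of all genes were. The same 3 genes had all 4 photoreceptor arrays above all 12 arrays of the other layers, which 3.49% of all genes did.

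The upstream sequences of the 5 higher members are shown because these genes were called together in the photoreceptor layer. Each is the 250 bases before the first listed RefSeq transcription start in the GRCm38.p6 build, read 5′ to 3′ on the gene's strand. Elovl4 lies at chr9:83806306-83806555 (minus strand), Agpat3 at chr10:78351701-78351950 (minus strand), Adipor1 at chr1:134415128-134415377 (plus strand), Lpcat1 at chr13:73466981-73467230 (plus strand) and Acsl6 at chr11:54303574-54303823 (plus strand). Capitals mark matches, on either strand, to TAATCC, the core bound by the photoreceptor factor Crx, and to GGGCGG, the GC box bound by Sp1.
Elovl4: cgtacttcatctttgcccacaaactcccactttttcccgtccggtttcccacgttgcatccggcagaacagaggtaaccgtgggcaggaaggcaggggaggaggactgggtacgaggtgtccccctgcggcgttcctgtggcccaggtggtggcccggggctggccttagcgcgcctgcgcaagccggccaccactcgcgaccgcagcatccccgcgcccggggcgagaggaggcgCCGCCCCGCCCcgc
Agpat3: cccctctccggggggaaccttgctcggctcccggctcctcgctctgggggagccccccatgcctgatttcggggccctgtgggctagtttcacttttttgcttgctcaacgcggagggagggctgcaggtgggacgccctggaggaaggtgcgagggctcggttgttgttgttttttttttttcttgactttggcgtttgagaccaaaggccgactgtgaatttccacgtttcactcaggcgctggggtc
Adipor1: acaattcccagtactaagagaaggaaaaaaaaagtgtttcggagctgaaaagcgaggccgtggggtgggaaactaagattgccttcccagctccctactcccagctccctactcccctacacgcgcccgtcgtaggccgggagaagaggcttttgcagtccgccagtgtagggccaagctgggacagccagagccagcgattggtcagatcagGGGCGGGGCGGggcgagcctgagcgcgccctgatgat
Lpcat1: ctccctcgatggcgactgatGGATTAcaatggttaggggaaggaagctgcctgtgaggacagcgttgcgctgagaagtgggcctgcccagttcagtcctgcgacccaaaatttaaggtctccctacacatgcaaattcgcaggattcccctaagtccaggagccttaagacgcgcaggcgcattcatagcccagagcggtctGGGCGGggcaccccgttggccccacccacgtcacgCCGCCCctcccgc
Acsl6: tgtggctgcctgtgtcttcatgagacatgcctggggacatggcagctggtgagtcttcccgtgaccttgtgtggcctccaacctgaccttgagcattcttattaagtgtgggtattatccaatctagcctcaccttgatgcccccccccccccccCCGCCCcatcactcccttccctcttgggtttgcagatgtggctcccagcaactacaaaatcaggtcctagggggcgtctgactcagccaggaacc
TAATCC occurred in the window of 1 of the 9 members with an entry (Lpcat1, beginning 230 bases before the start), and in 6.25% of all 32851 promoters of this length. GGGCGG occurred in 6 of the 9, and in 32.7% of all promoters. In Elovl4 and Adipor1 the GC boxes came as a pair that overlaps by a base, beginning 14 and 9 bases before the start in Elovl4 and 37 and 32 bases before it in Adipor1. Acsl6 had 1, beginning 95 bases before this start. The Agpat3 window held neither motif. A match here describes letters in a window and not binding, and no match says only that these letters are not in it.

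Elovl4 (probe set 10595392), the elongase that makes very-long-chain fatty acids, had the largest difference of the 9. Its photoreceptor arrays read 309.5 and 380.3 in light and 393.7 and 386.7 in dark (368 ± 39.1, SD, n = 4). The inner nuclear layer read 41.7 and 55.9 in light and 39.7 and 107.4 in dark, and the inner plexiform layer 42.3 and 40.3, then 43.4 and 55.7. The ganglion cell layer read 46.6 and 131.5 in light and 42.4 and 34.1 in dark. Every photoreceptor array stood above every array of the other layers, in which 2 arrays were far above the rest: replicate 2 of the dark inner nuclear layer and replicate 2 of the light ganglion cell layer. Elovl4 was 2.82 ± 0.27 (SE) higher in the photoreceptor layer, with an interval of 2.26 to 3.39, a 7.08-fold difference (limma adjusted p = 1.85e-06). The same 2 inner-layer arrays had the highest rod marker sums outside the photoreceptor layer and whole retina, 1688 and 1964. Without both, a choice made after seeing the data, the Elovl4 difference was 3.07 ± 0.19. It had to rise, because these arrays hold the highest Elovl4 values of the other layers, so it adds no support.

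Whole retina read 216 and 482 for Elovl4 in light and 337.9 and 483.7 in dark, a range that holds all 4 photoreceptor values. Photoreceptor layer minus whole retina was 0.02 ± 0.33 (interval -0.67 to 0.71). In the order of tissues (photoreceptor layer, whole retina, inner nuclear layer, ganglion cell layer, inner plexiform layer), only the step from whole retina to the inner nuclear layer was called, at 2.69 (adjusted p = 4e-05). By correlation of the means of the 10 groups, the tested genes most like Elovl4 were Slc16a1 (r = 0.996), Fam3c (0.994) and Rbp3 (0.994). Rbp3 encodes the retinoid-binding protein of the space around the outer segments.

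**Figure D1:**
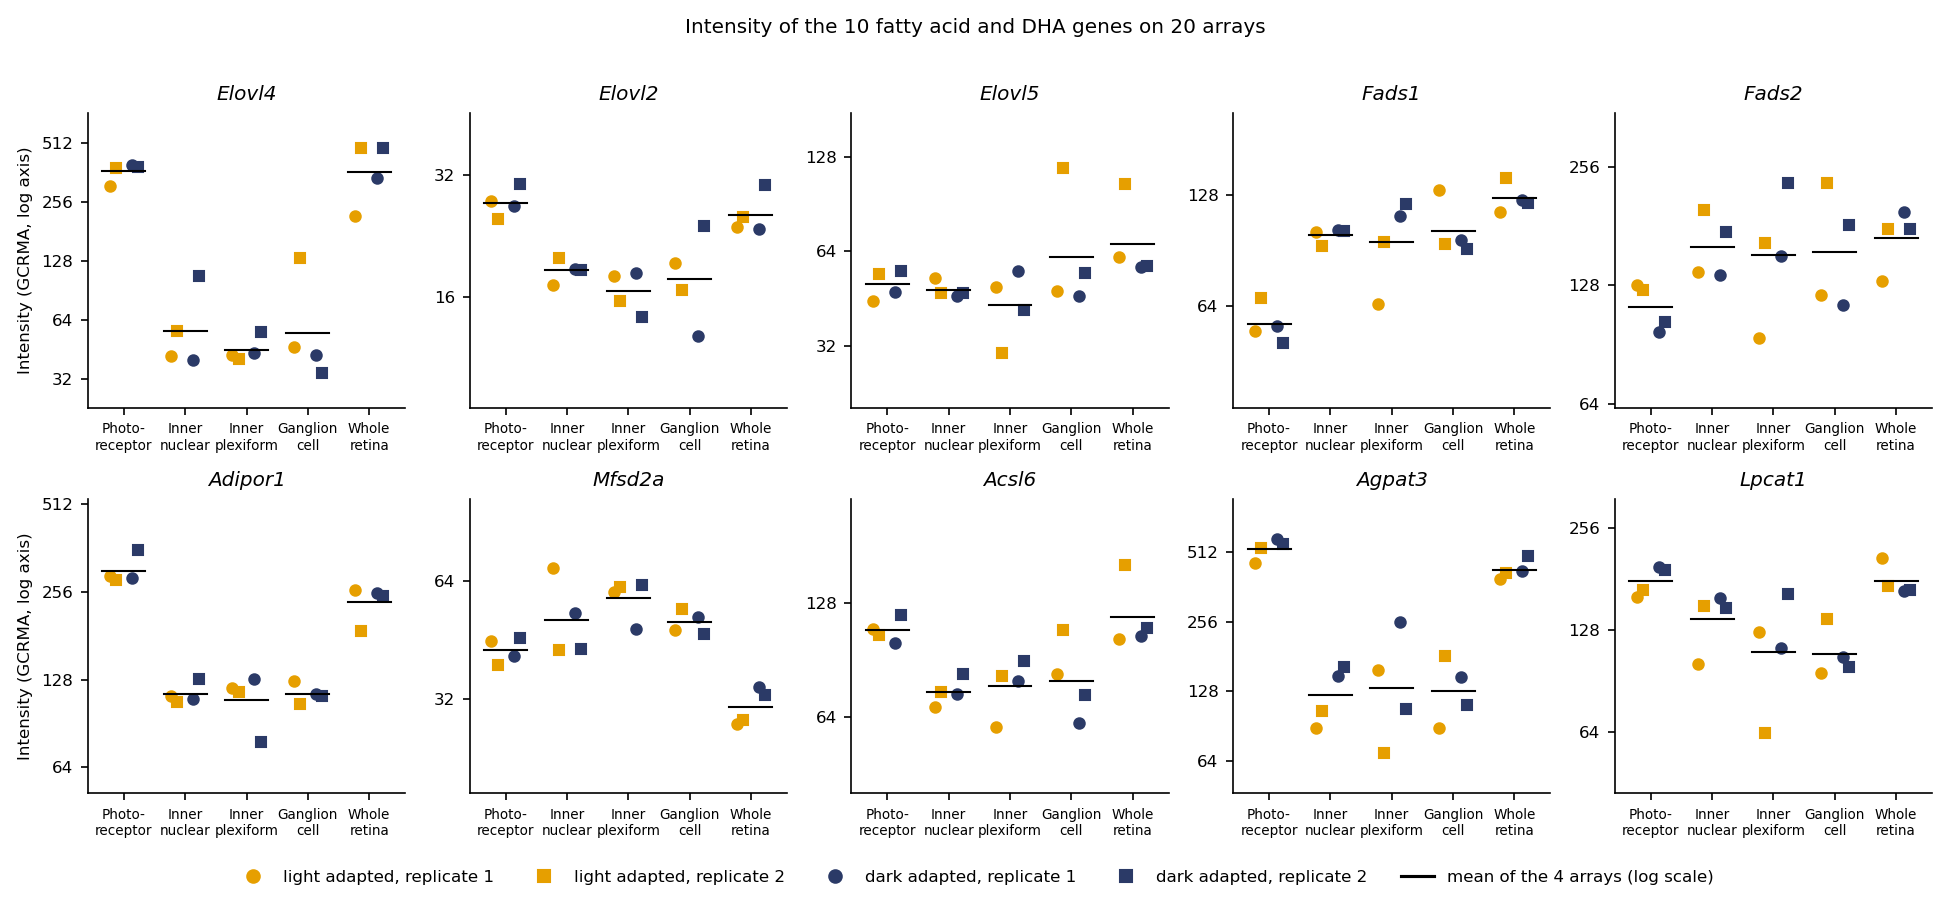
Intensity of each of the 10 members on all 20 arrays (log2-spaced axis, 1 panel per gene), with tissues along the horizontal axis, light-adapted and dark-adapted arrays as separate symbols and the tissue mean of the log2 values as a bar. Elovl4, Agpat3 and Adipor1 have all 4 photoreceptor arrays above the other dissected layers, while Fads1 reads 51 to 67.3 there and 64.9 to 132.1 in the other layers.

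Agpat3 (probe set 10370471), a lysophosphatidic acid acyltransferase that places DHA in the phospholipid precursor phosphatidic acid, read 460.9 and 534.1 in light and 585 and 557.7 in dark in the photoreceptor layer (534 ± 53.2, SD, n = 4). The inner nuclear layer read 89.2 and 104.8 in light and 149.9 and 163 in dark, and the ganglion cell layer 89.2 and 182.4, then 147.6 and 111.9. The inner plexiform layer read 158.2 and 69.4 in light and 255.7 and 107.8 in dark. Its replicates thus lay more than 2-fold apart in both states, yet the highest stood below every photoreceptor array. Agpat3 was 2.06 ± 0.23 higher in the photoreceptor layer (interval 1.59 to 2.54, 4.17-fold, adjusted p = 8.13e-06). Whole retina read 391 and 417.7 in light and 426.2 and 492.1 in dark, above every array of the other layers and overlapping the photoreceptor range. The only called step in its order of tissues was from whole retina to the inner plexiform layer, 1.71 (adjusted p = 0.000139). Its group means were most like those of Anp32e (r = 0.993), Anp32a (0.988) and Xiap (0.987).

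Adipor1 (probe set 10350015), an adiponectin receptor whose loss lowers retinal DHA and leads to photoreceptor degeneration in mice, read 289.6 and 281.1 in light and 285.4 and 357.8 in dark in the photoreceptor layer (303 ± 36.4, SD, n = 4). The inner nuclear layer read 112.4 and 107.5, then 109.9 and 128.3, and the ganglion cell layer 126.9 and 105.6, then 114.7 and 112.3. The inner plexiform layer read 119.8 and 116 in light and 128.4 and 78.1 in dark. These 12 values lay close together and well below the photoreceptor arrays. The difference was 1.42 ± 0.13 (interval 1.15 to 1.70, 2.68-fold, adjusted p = 1.52e-06). Whole retina read 260.5 and 188.8 in light and 254.3 and 247.6 in dark, below all photoreceptor arrays and above all other layers. The step from whole retina to the ganglion cell layer, 1.04 (adjusted p = 0.000228), was the only called one in its order. The genes most like it were Esrrb (r = 0.992), Faim (0.990) and Mef2c (0.988). Its paralogue Adipor2 differed by 0.13 ± 0.17 (adjusted p = 0.664).

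Lpcat1 (probe set 10406031), the lysophosphatidylcholine acyltransferase that is mutated in the rd11 mouse with photoreceptor loss, differed by less. The photoreceptor arrays read 160.2 and 168.4 in light and 195.6 and 192.8 in dark. The inner nuclear layer read 101.6 and 150.4, then 158.8 and 148.4, the inner plexiform layer 126.7 and 63.5, then 113 and 163.5, and the ganglion cell layer 95.5 and 138, then 106.3 and 99.8. The ranges overlapped at a single array, replicate 2 of the dark inner plexiform layer. Lpcat1 was 0.59 ± 0.17 higher in the photoreceptor layer (1.51-fold, adjusted p = 0.0245). Leaving out any 1 of the 4 photoreceptor arrays ended this call (adjusted p of 0.079 to 0.104), as did leaving out the 5 arrays with Y-linked signal (0.59, adjusted p = 0.114). In light arrays alone and in dark arrays alone, Lpcat1 was also not called (differences 0.60 and 0.59, limma adjusted p = 0.167 and 0.206). Whole retina read 208 and 172 in light and 167.1 and 168.4 in dark, overlapping the photoreceptor range. The genes with the most similar group means were Ube2d2a (r = 0.964), Scarna17 (0.962) and Bod1 (0.961).

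Acsl6 (probe set 10376096), an acyl-CoA synthetase that prefers DHA, read 109.7 and 105.8 in light and 100.6 and 119 in dark in the photoreceptor layer. The inner nuclear layer read 68 and 74.8, then 73.7 and 83.4, the inner plexiform layer 60.5 and 82.1, then 79.8 and 90.3, and the ganglion cell layer 83.2 and 108.7, then 61.9 and 73.2. Only replicate 2 of the light ganglion cell layer reached the photoreceptor range. The difference was 0.49 ± 0.14 (1.40-fold, adjusted p = 0.0232), and it was not called without photoreceptor light replicate 1 (adjusted p = 0.0946), light replicate 2 (0.0820) or dark replicate 2 (0.135), nor without the arrays with Y-linked signal (0.0571). In light arrays alone and in dark arrays alone, Acsl6 was also not called (differences 0.46 and 0.52, limma adjusted p = 0.193 and 0.164). Whole retina read 103.1 and 161.2 in light and 104.8 and 109.9 in dark. Uggt1 (r = 0.985), Edem3 (0.983) and Atxn1 (0.975) were most like it.

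The front-end desaturases are Fads1 and Fads2. Fads1 (probe set 10461439), which inserts a later double bond, read 55 and 67.3 in light and 56.6 and 51 in dark in the photoreceptor layer (57.5 ± 6.96, SD, n = 4). The inner nuclear layer read 101.3 and 92.8, then 103.1 and 102.4, the inner plexiform layer 64.9 and 95.2, then 112.3 and 120.5, and the ganglion cell layer 132.1 and 94, then 96.4 and 91.5. The 2 sides overlapped at 1 array on each, photoreceptor light replicate 2 and inner plexiform light replicate 1. Fads1 was 0.80 lower in the photoreceptor layer (difference -0.80 ± 0.13, interval -1.07 to -0.53, 1.74-fold lower, adjusted p = 0.000452). It was the 1 member of 9 that was lower there than in each other layer singly, which 0.511% of all genes were. Whole retina read 115.3 and 141.9 in light and 124.2 and 121.6 in dark, above every inner nuclear layer array. Scg2 (r = 0.980), Hlf (0.973) and Spc25 (0.971) were most like it. Müller glia markers were lower in the photoreceptor layer as well, with 5 of 8 called lower, 0 called higher and sums of 456 to 512 against 632 to 1551 in the other layers. None of these 8 was at the floor of 8 intensity units on every array of a tissue. This was not particular to Müller glia. Called lower were also 7 of 8 ganglion cell, 3 of 5 bipolar, 3 of 6 amacrine and 2 of 4 horizontal cell markers. In each of these lists 0 were called higher. The part of any of these cell types in the Fads1 difference was not tested.

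Fads2 (probe set 10465895), which introduces the first double bond of the pathway, read 128.6 and 124.6 in light and 97.5 and 103.4 in dark in the photoreceptor layer. The other layers ranged from 94 to 233.3 and whole retina from 131.4 to 196. The photoreceptor range lay at the lower end but inside that of the other layers, and the difference of -0.47 ± 0.19 (interval -0.88 to -0.06) was not called (adjusted p = 0.127). It passed with array weights (adjusted p = 0.0458). Fads3, a desaturase of the same family that acts on sphingoid bases, read 68.2 to 78.4 in the photoreceptor layer and 87.5 to 137.3 in the other layers, with no overlap, and was lower by -0.56 ± 0.13 (adjusted p = 0.00954). Fads3, Fads2 and Fads1 are consecutive protein-coding genes on chromosome 19 in the RefSeq annotation. All 3 had negative differences, of which those of Fads1 and Fads3 passed.

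The elongases of the preceding steps are Elovl5 (probe set 10587284) and Elovl2 (probe set 10408838). Elovl5 read 44.4 and 54 in light and 47.6 and 55.6 in dark in the photoreceptor layer, and 30.4 to 118 in the other layers. Its difference was -0.0041 ± 0.20, with an interval of -0.43 to 0.42 (adjusted p = 0.992). The 118 was replicate 2 of the light ganglion cell layer, the next highest layer array read 55.6, and whole retina read 61.3 and 105 in light and 57.2 and 57.3 in dark. Elovl2 was dim on every array and did not pass the filter, since none of the 20 arrays exceeded a log2 value of 5. It read 27.6 and 25 in light and 26.9 and 30.4 in dark in the photoreceptor layer, 12.8 to 24 in the other layers and 23.6 to 30.2 in whole retina. All 4 photoreceptor arrays were above the 12 others. In the fit without a filter, over 19938 genes of which 8.87% were called, Elovl2 was 0.64 ± 0.15 higher in the photoreceptor layer (1.55-fold, adjusted p = 0.0191).

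Mfsd2a (probe set 10516064), the transporter of DHA-bearing lysophosphatidylcholine at the blood-brain and blood-retina barriers, read 45 and 39 in light and 41.1 and 45.8 in dark in the photoreceptor layer. The other layers ranged from 42.6 to 69. The difference of -0.31 ± 0.14 (interval -0.60 to -0.02) was not called (adjusted p = 0.160). Whole retina was lowest, at 27.6 and 28.2 in light and 34.4 and 32.7 in dark, below every one of the 16 layer arrays. Over all genes, whole retina minus the mean of the 4 layers also had a negative median, -0.18, with 28.6% called lower. How many genes share such a gap was not counted. Pigment epithelium markers, of a neighbouring tissue in which Mfsd2a is also known, summed to 200 to 212 in whole retina and 241 to 316 in the layers. The highest sum was in the ganglion cell layer, and Rpe65 read 5.7 to 12.2, around the floor of 8. Ttr read 16 to 42.6, and none of the 8 markers was under the floor on every array of a tissue. Of the 6 tested markers, 0 were called in any layer comparison, and 3 were lower in whole retina. Whether these sums are background was not tested. Endothelial and pericyte markers summed to 542 to 638 in whole retina, 386 to 435 in the photoreceptor layer and 508 to 766 in the other layers. This sum joins markers that went opposite ways. In whole retina 1 of the 8 tested was called higher and 1 lower. Kdr read 156.1 to 202.6 in whole retina and 52.6 to 260.2 in the layers, and Cldn5 69.5 to 82 and 75.6 to 122.2. The part of either cell type in the Mfsd2a levels was not tested.

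**Figure D2:**
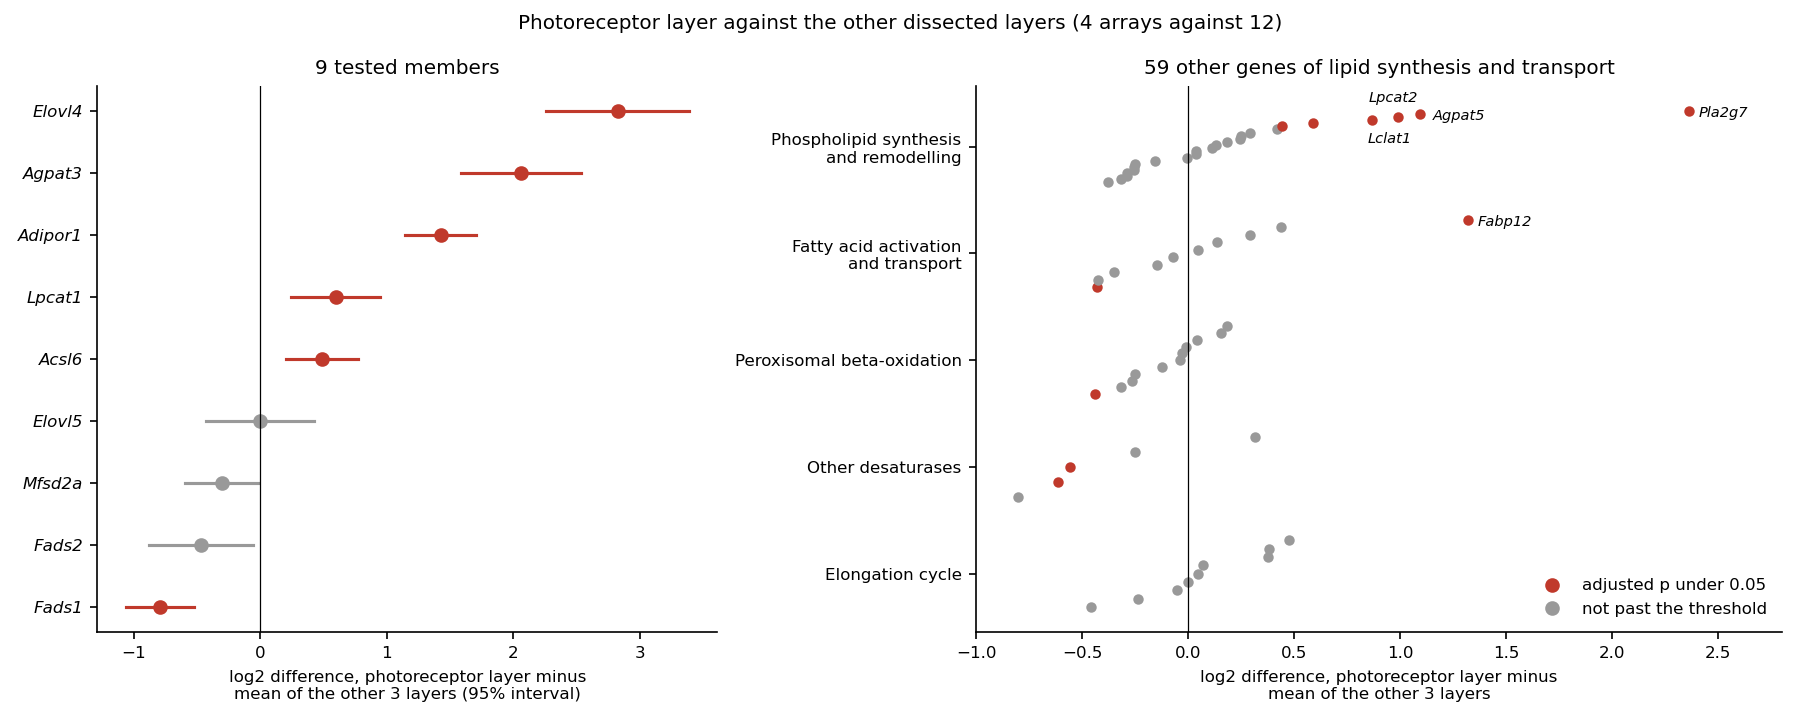
Left, log2 difference between the photoreceptor layer and the mean of the other 3 layers for the 9 tested members, with 95% intervals (4 arrays against 12). Right, the same difference for 59 other lipid genes in 5 lists, where red points are called and grey points are not. Members spread from -0.80 (Fads1) to 2.82 (Elovl4), and Pla2g7, at 2.36, stands farthest to the right among the other genes.

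Across pairs of layers the called members came from comparisons with the photoreceptor layer. Against the inner nuclear layer 4 members were called (Elovl4, Agpat3 and Adipor1 higher, Fads1 lower; 5.33% of all genes). Against the ganglion cell layer Lpcat1 joined them (5 called, 7.66%), and against the inner plexiform layer Lpcat1 and Acsl6 did (6 called, 21.4%). None of the 9 was called between the inner nuclear and inner plexiform layers (4.85% of all genes), the inner nuclear and ganglion cell layers (0.458%) or the inner plexiform and ganglion cell layers (3.1%). In these 3 comparisons none had an unadjusted limma p under 0.05, which 20.9%, 7.31% and 19.4% of all genes had.

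Each remaining layer was also set against the mean of the other 3. No member was called in the inner nuclear layer (0.611% of all genes) or in the ganglion cell layer (1.87%), where 4 and 5 of the 9 had an unadjusted limma p under 0.05 (10.3% and 10.8% of all genes). In the inner plexiform layer 2 members were lower, Elovl4 by -1.21 ± 0.27 (adjusted p = 0.00779) and Adipor1 by -0.54 ± 0.13 (adjusted p = 0.0131), where 13.6% of all genes were called and 5.29% were lower. Without inner plexiform dark replicate 2, Adipor1 was not called (-0.36, adjusted p = 0.0856). These comparisons share their arrays with the photoreceptor comparison, since the mean of the other 3 layers includes it. With the inner plexiform layer taken from its dark arrays alone, the count was 0, with 0.232% of all genes called, and the differences were -1.08 for Elovl4 (adjusted p = 0.253) and -0.66 for Adipor1 (adjusted p = 0.149). The photoreceptor count was 6 in that fit (10.3% of all genes), and it was 4 without the arrays with Y-linked signal (6.77%), where Elovl4 (3.04), Agpat3 (2.09), Adipor1 (1.42) and Fads1 (-0.67) passed.

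Against the mean of the 4 layers, whole retina differed in 7 of the 9 members, where 48.5% of all genes were called. The median difference of the 9 was 0.48, against -0.18 over all genes. There were 6 higher (19.9% of all genes), Elovl4 (2.10 ± 0.26), Agpat3 (1.24 ± 0.22), Adipor1 (0.71 ± 0.13), Fads1 (0.54 ± 0.12), Acsl6 (0.48 ± 0.13) and Lpcat1 (0.44 ± 0.16). There was 1 lower (28.6%), Mfsd2a (-0.71 ± 0.13, adjusted p = 0.000583). Leaving out any 1 of the 4 whole retina arrays ended the Lpcat1 call (adjusted p of 0.0613 to 0.116), and leaving out light replicate 2 ended that of Acsl6 (0.0980). Lpcat1 was also not called without the arrays with Y-linked signal (0.35, adjusted p = 0.156), with quantile normalisation (0.0897) or without a filter (0.0502). The mean gives each layer equal weight, whatever its share of the tissue's RNA. Against the photoreceptor layer alone, Fads1 was the 1 member called, at -1.13 (photoreceptor minus whole retina; 10.4% of all genes).

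**Figure D3:**
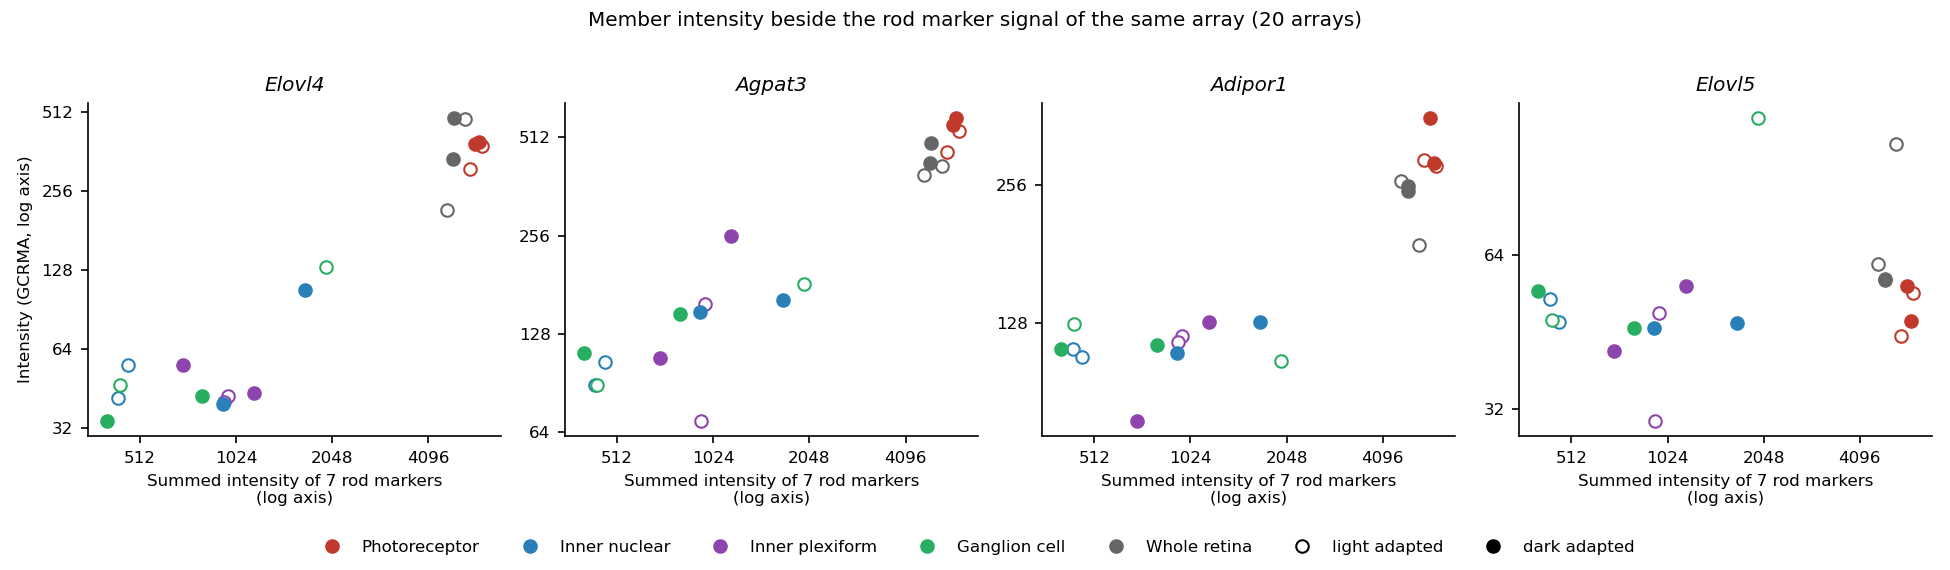
Intensity of members (vertical axes) against the summed intensity of 7 rod markers on the same array (horizontal axis), with 1 point per array and colours for tissues. The photoreceptor and whole retina arrays lie at rod sums of 4670 and above, and the inner-layer arrays at 1964 or below, where the 2 highest Elovl4 values (131.5 and 107.4) sit at the 2 highest rod sums.

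The rest of the pathway was read from 5 lists of other enzymes and carriers, 72 genes of which 59 were tested. In the photoreceptor layer 7 of the 59 were higher and 4 lower, where 7.26% and 5.69% of all genes were, with a median of -0.0005 against -0.06 over all genes. The counts of the single lists below stand against the same shares. None of the 9 tested genes of the elongation cycle, the remaining elongases and the reductases and dehydratases that complete each round, was called. Hacd2, a dehydratase of that cycle, came closest at 0.47 ± 0.16 (adjusted p = 0.0654). It and Hacd3 were called without the 2 inner-layer arrays of highest rod signal. The counts over all 5 lists were then 8 higher and 4 lower, with 16.2% of all genes called against 12.9% in the main fit. Of 24 genes of phospholipid synthesis and remodelling, 6 were higher and 0 lower. Pla2g7, a lipase that cleaves platelet-activating factor and oxidised phospholipids, read 127.7 to 209.9 in the photoreceptor layer and 13.8 to 49.7 in the other layers, a difference of 2.36 ± 0.22. Agpat5 (1.09 ± 0.19) and Lpcat2 (0.99 ± 0.18), relatives of Agpat3 and Lpcat1, were higher with no overlap between the sides. Lpin2, a phosphatidate phosphatase, was higher by 0.59 ± 0.13.

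Of the other desaturases 2 of 5 were lower, Fads3 (above) and Fads6 (-0.62 ± 0.14, adjusted p = 0.00833). Of 11 peroxisomal beta-oxidation genes 1 was lower, the thioesterase Acot8 (-0.44 ± 0.13, adjusted p = 0.0368). Of 10 genes of activation and transport, the fatty acid-binding protein gene Fabp12 was higher (1.32 ± 0.13) and Dbi, an acyl-CoA-binding protein gene, was lower (-0.43 ± 0.14, adjusted p = 0.0456). Fabp12 read 159.9 to 181.7 in the photoreceptor layer and 43.9 to 119.9 in the other layers. Pla2g7, Agpat5, Lpcat2, Lpin2 and Fabp12 were called without the arrays with Y-linked signal too. The counts then fell to 5 higher and 0 lower, so Fads3, Fads6, Acot8 and Dbi were not called. The share of all genes called fell as well, from 12.9% to 6.77%. Without the light inner plexiform arrays the counts were 6 higher, Hacd2 among them, and 2 lower, Fads3 and Fads6 (10.3% of all genes called).

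No member was called between dark and light adaptation. The average over the 5 tissues (0 of 9 members, 0.0133% of all genes) and each tissue by itself gave 0 calls: the photoreceptor layer (0.0465% of all genes), whole retina (0.0266%), the ganglion cell layer (0.00664%), the inner plexiform layer (1.83%) and the inner nuclear layer (0%). Unadjusted limma p-values under 0.05 were 0 of 9 in the average (6.11% of all genes), the photoreceptor layer (1.49%), the inner nuclear layer (3.14%) and whole retina (0.897%). There was 1 in the inner plexiform layer (18.7%) and there were 2 in the ganglion cell layer (4.08%). With 2 arrays against 2, the intervals were wide: in the photoreceptor layer dark minus light was 0.19 for Elovl4 (interval -0.79 to 1.16), 0.20 for Agpat3 (-0.62 to 1.03) and 0.16 for Adipor1 (-0.32 to 0.65). No member's dark effect was called as different between tissues (moderated F test, 0.0266% of all genes called), and Fads1 had the lowest unadjusted p, 0.122.

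Agpat3 had the largest average dark minus light difference of the 9, 0.35 ± 0.17 (interval -0.02 to 0.72, adjusted p = 0.828). In the inner nuclear layer both of its dark arrays (149.9 and 163) read above both light arrays (89.2 and 104.8), a difference of 0.69 ± 0.39 that was not called (adjusted p = 1). Rod marker sums were also higher on these dark arrays, 930 and 1688, than on the light arrays, 438 and 469. The part of rod signal in the Agpat3 difference was not tested. Fads1 in the inner plexiform layer read 112.3 and 120.5 in dark and 64.9 and 95.2 in light, a difference of 0.57 ± 0.22 (adjusted p = 0.183). In the ganglion cell layer dark minus light was -1.04 ± 0.46 for Elovl4 and -0.50 ± 0.23 for Acsl6 (adjusted p = 1 for each). Without the 2 arrays of highest rod signal, of which 1 is the light ganglion cell array at 131.5, the Elovl4 difference was -0.29. The arrays with Y-linked signal all belong to the light-adapted side and include none of the inner plexiform layer. Without them, the photoreceptor layer, inner nuclear layer and whole retina keep 1 light array each, so only differences are given. In the photoreceptor layer dark minus light was then 0.04 for Elovl4, 0.10 for Agpat3 and 0.18 for Adipor1. Agpat3 in the inner nuclear layer differed by 0.58 ± 0.48. The inner plexiform differences did not change, since no array of that layer was left out. In the ganglion cell layer both light arrays carry that signal, so signal and adaptation cannot be told apart there.

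**Figure D4:**
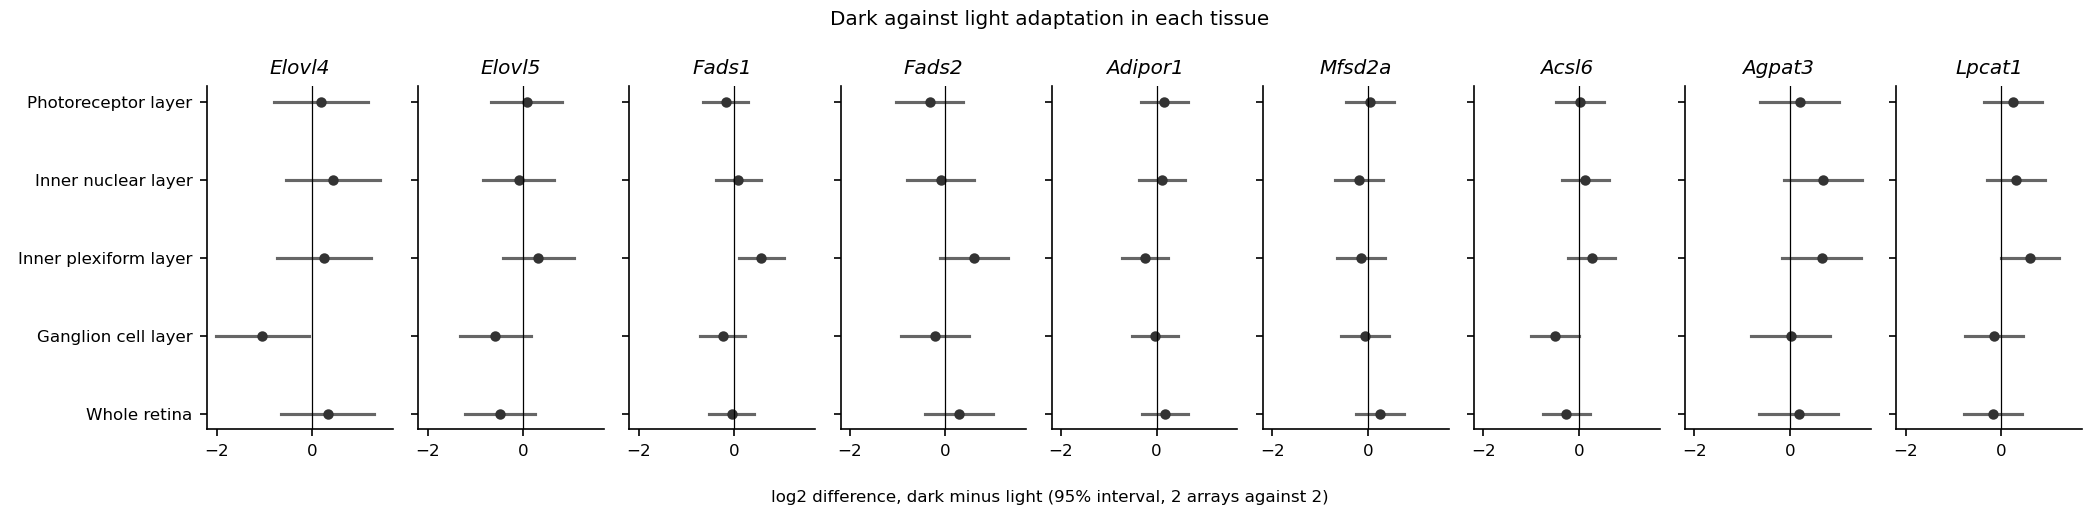
Dark minus light difference (log2, points) with its 95% interval (lines) for the 9 tested members in each of 5 tissues, from 2 arrays against 2. Intervals span 0 except for Fads1 in the inner plexiform layer and Elovl4 and Acsl6 in the ganglion cell layer, and none of the differences passed after adjustment.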

How the data were processed

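Per the submitters' processing notes the authors processed the 20 arrays with GCRMA (version not given). The deposited values are intensities per probe set, read as linear from their range. A floor of 8 was applied before log2. Probe sets with 1 symbol in the platform annotation and a log2 value over 5 on at least 2 arrays were kept, and the probe set with the highest mean stood for a gene. Tissues and adaptations were compared in 1 limma fit (limma 3.58.1, R 4.3.3) of 10 group means with an intensity trend, 10 residual degrees of freedom, two-sided tests and Benjamini-Hochberg adjustment over 15057 genes. The fit was tested on simulated data.

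Members and lists were chosen with earlier results of these data known. All members are named. Of each pathway list, up to 4 called genes with the smallest p in the photoreceptor comparison are named, and of each called member the 3 genes with the highest correlation of group means. Hacd2, Hacd3, Scd2, Slc27a1 and Adipor2 were named after their values were seen. Fads1 had no RefSeq upstream entry used here. Alternatives covered normalisation (quantile, median centring), filter, floor (log2 of the value plus 16), probe set choice, trend, array weights, the arrays fitted and a replicate block. The number of arrays limits the precision.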

Additional observations from a re-analysis of the deposited data

Results flagged for a closer look

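Among 4 arrays of a tissue, light and dark pooled, 10 of 50 combinations of member and tissue had an array whose gap to the nearest other, over the whole log2 range, passed Dixon's critical value at the 95% level. Chance flags about 1 in 20 such groups. Replicate 2 of the light whole retina stood apart in 3 members, at 105 for Elovl5 (others 57.2 to 61.3), 161.2 for Acsl6 (103.1 to 109.9) and 188.8 for Adipor1 (247.6 to 260.5). Replicate 1 of the light whole retina was high for Lpcat1, at 208 (167.1 to 172). In the photoreceptor layer, Elovl4 was low on light replicate 1, at 309.5 (380.3 to 393.7), and Adipor1 was high on dark replicate 2, at 357.8 (281.1 to 289.6). In the inner nuclear layer, Fads1 was low on light replicate 2, at 92.8 (101.3 to 103.1), and Lpcat1 on light replicate 1, at 101.6 (148.4 to 158.8). Fads1 was high on ganglion cell light replicate 1, at 132.1 (91.5 to 96.4). Mfsd2a was low on inner plexiform dark replicate 1, at 48.3 (59.8 to 62.3).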

How the results depend on the processing

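Elovl4, Agpat3 and Adipor1 were called higher in the photoreceptor layer in all 36 alternatives (2.48 to 3.07, 1.92 to 2.19 and 1.31 to 1.53), and Fads1 lower in 35 of 36, the exception being the light arrays alone (adjusted p = 0.0531). The count of members called there was 3 in the light arrays alone (4.7% of all genes called). In the inner nuclear layer it was 1 without the 2 inner-layer arrays of highest rod signal (0.472% of all genes). In the inner plexiform layer it was 1 in light alone (15.7%), 0 in dark alone (0.0598%) and 0 without its light arrays (0.232%). In the ganglion cell layer it was 1 without the 2 arrays of highest rod signal (1.14%). For whole retina it was 3 in dark alone (16.5%). The cause was not tested. Leaving out each array in turn gave 4 to 6 members for the photoreceptor layer, 0 for the inner nuclear layer, 1 to 4 for the inner plexiform layer (4 without light replicate 1 and 1 without dark replicate 2), 0 to 2 for the ganglion cell layer (1 without its light replicate 2, 1 without inner nuclear dark replicate 1 and 2 without inner plexiform dark replicate 2), 5 to 8 for whole retina, and 0 in every dark comparison. Elovl5, near 0 in the photoreceptor comparison, changed sign with median centring (0.017), in dark alone (0.093), without the Y-linked arrays (0.176), without the 2 arrays of highest rod signal (0.107) and when single arrays were left out (-0.11 to 0.105). Same-numbered replicates deviated together at 0.0059 to 0.479 over 45 pairs of groups (median 0.127, 32 over 0.1). Since not every pair exceeded 0.1, the numbers were not taken to pair the samples. All 45 values were above 0, however, and the main fit has no term for a shared replicate effect. Such an effect is not excluded, and calls that change with a replicate block depend on this choice. With the replicate block, photoreceptor calls over all genes rose from 1949 to 2673. The ganglion cell layer count of members rose from 0 to 1 (Elovl4, adjusted p = 0.0278), where 3.39% of all genes were called. Fads2 was then called in the photoreceptor comparison (0.0238) and against whole retina (0.0238), Acsl6 against the inner nuclear (0.0175) and ganglion cell layers (0.0461), and of the pathway genes Hacd2 (0.0486), Scd2 (0.0190) and Slc27a1 (0.0434) in the photoreceptor comparison. It changed no other call of a member, nor of a pathway gene in the photoreceptor comparison. Comparisons that lose a group when the Y-linked or light inner plexiform arrays are left out had no value in that form, so fits on the groups that remain were added after seeing the data, as was the fit without the 2 arrays of highest rod signal.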
